A study of Mus musculus with 12 samples.

Results

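The response of wildtype mouse embryonic fibroblasts to cisplatin was described from 6 arrays, 3 of RNA from untreated cells and 3 of RNA from cells exposed to 16 µM cisplatin for 24 h, out of 12 arrays in the series. Mouse embryonic fibroblasts (MEFs) are connective tissue cells grown from whole embryos, here taken at embryonic day 13.5 and used as primary cultures at passage 2. The other 6 arrays held RNA from Rb null MEFs, which lack the retinoblastoma gene Rb1, untreated or treated in the same way, and are used here only to show where the wildtype response differed. The design describes 1 RNA sample per group, hybridized 3 times to Affymetrix arrays from 6 µg of total RNA, so the p-values measure only the spread between hybridizations, not between cultures or embryos. The question addressed is which transcripts change when cells with an intact Rb1 gene are exposed to this drug.

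Cisplatin is a platinum compound that binds purines and crosslinks DNA, within a strand and between strands. Such lesions block DNA and RNA polymerases, are removed by nucleotide excision repair and by the crosslink repair pathways, and activate the damage kinases ATM and ATR. These kinases stabilize p53, a transcription factor whose targets arrest the cell cycle, feed back on p53 or promote cell death. The retinoblastoma protein acts further along, where it holds E2F transcription factors in check and with them the genes of DNA replication.

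The deposited values are signals per probe set on a linear scale, and a change is given as the difference of log2(signal + 10.4) between cisplatin and untreated arrays, ± its standard error, with n = 3 arrays per group throughout. This scale understates the change of weak genes. Of 13575 probe sets tested, 1 was taken per gene, which left 7945 genes. A gene was called higher or lower at an adjusted p under 0.05 over all probe sets and a change of at least 1.5-fold, and only called genes are said here to have risen or fallen.

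Signals of Xist, the noncoding RNA of the inactive X in female cells, were 119, 115 and 163 on untreated wildtype arrays and 2151, 2506 and 2481 on treated ones. Eif2s3y, a translation factor gene on the Y chromosome, was at 478 ± 7.90 (SD, n = 3) in untreated and at 1.27 ± 0.98 (SD, n = 3) in treated wildtype cells. The treated arrays thus held RNA with Xist and with little Eif2s3y and the untreated arrays the reverse, so cisplatin and the embryo or culture from which the cells came cannot be told apart in any result below. In Rb null cells Xist was at 3139 ± 329 untreated and 3443 ± 281 treated (SD, n = 3). Eif2s3y was at 1.43 ± 0.61 and 6.63 ± 9.69 there (SD, n = 3). In these genes the untreated wildtype group thus stood apart from all other groups. Across probe sets, the correlation of log2 signals lay between 0.981 and 0.989 for the 6 pairs of like wildtype arrays and between 0.879 and 0.887 for the 9 pairs of an untreated and a treated one. The ratio of 3′ to 5′ signal of the actin control, a sign of RNA integrity, was 1.12 to 1.17 on untreated and 1.20 to 1.25 on treated wildtype arrays, and its part in the results was not tested. In bulk RNA, fewer cells of a type and less RNA per cell cannot be told apart.

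Cisplatin-treated wildtype cells differed from untreated ones in about equal measure in each direction. Of the 7945 genes, 1175 were higher (14.8%) and 1009 lower (12.7%), or 27.5% called in all, and the median change over all genes was log2 0.0565. At least 2-fold changes were seen in 476 higher and 491 lower genes, and at least 8-fold changes in 19 higher and 34 lower genes. The arrays of the 2 groups did not overlap for 1160 of the higher and 996 of the lower genes. Without overlap were also many uncalled genes, 62.4% of all genes in either direction. On chromosomes 1 to 19 and X, between 22.1% and 31.5% of the tested genes were called, the highest share on X, and no gene of Y was tested.

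**Figure D1:**
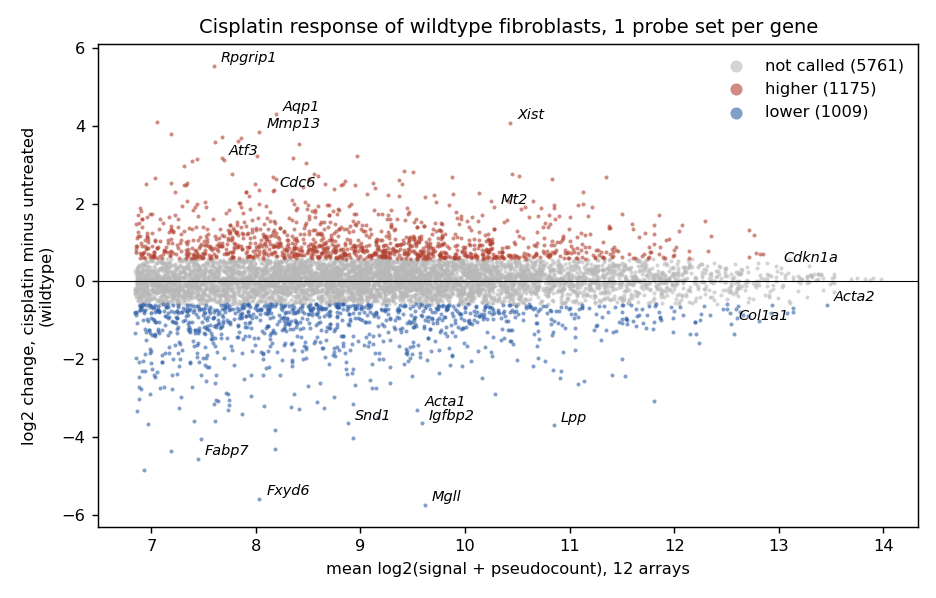
Each point is 1 of 7945 genes, with its mean log2 signal over all 12 arrays on the x axis and its log2 change, cisplatin minus untreated wildtype, on the y axis; red points are the 1175 genes called higher, blue points the 1009 called lower and grey points those not called. Genes of both colours lie along the whole range of signal, and the ends of the response, Rpgrip1 at 5.54 and Mgll at -5.75, are labelled.

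The largest rise was that of Rpgrip1, which encodes a scaffold protein of the photoreceptor cilium, with signals of 58.2, 44.8 and 49.6 without and 2726, 2858 and 2922 with cisplatin. This was a 46.6-fold rise (log2 5.54 ± 0.18, adjusted p = 9.77e-12), while in Rb null cells the gene went from 63.3 ± 12 to 103 ± 30.1 (SD, n = 3). Aqp1, the gene of a water channel, went from 47.3, 59.9 and 53.4 to 1212, 1245 and 1271, and Sod3, which encodes the extracellular superoxide dismutase, from 71.1, 81.1 and 42.4 to 998, 1034 and 997. In each of these 3 genes all treated arrays were above all untreated ones. Arrays without overlap were a condition for the choice of the 20 largest rises and 20 largest falls, so this adds no support. The log2 changes were 4.30 ± 0.10 (adjusted p = 5.66e-13) and 3.80 ± 0.19 (adjusted p = 6.74e-10) for the latter pair. Their Rb null changes were 0.39 and -0.23, neither of them called.

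Other large rises were those of genes with varied functions. Mmp13, a collagenase gene, had signals of 50.1, 57.1 and 75.7 before and 1008, 965 and 1045 after cisplatin (log2 3.85 ± 0.13, adjusted p = 7.86e-12), and the chemokine gene Ccl9 of 135, 105 and 109 before and 1046, 1224 and 1269 after (log2 3.23 ± 0.13, adjusted p = 4.78e-11). In both the groups did not overlap, as the choice of the largest rises required. Icam1, whose product binds leukocyte integrins, rose by log2 3.06 ± 0.12, the TNF receptor gene Tnfrsf18 by 3.62 ± 0.16, and Lum, which encodes the matrix proteoglycan lumican, by 3.11 ± 0.14. The collagen gene Col10a1 (log2 4.10 ± 0.20), best known from hypertrophic cartilage, and the cell cycle regulator gene Rgcc (3.68 ± 0.23) were also among the 20 largest rises. So were the stress kinase gene Mapk13 (3.23 ± 0.0908), the uridine phosphorylase gene Upp1 (3.15 ± 0.39), the fatty acid transporter gene Slc27a3 (3.09 ± 0.16) and the racemase gene Amacr (2.98 ± 0.19). Of the 20 largest rises, with Xist among them, 15 also rose in Rb null cells and 1, Lum, fell there; over all genes, Rb null cells had 16.6% higher and 20.3% lower, or 36.9% called. For 12 of the 20 the rise was larger in wildtype than in Rb null cells by a test of the difference, which called 15% of all genes higher and 8.7% lower.

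The 20 largest falls had a median of log2 -3.68, and 19 of the 20 genes also fell in Rb null cells. Mgll, the gene of the lipase that breaks down the endocannabinoid 2-arachidonoylglycerol, went from 5258, 4983 and 4713 to 60.7, 90.5 and 102. This 53.6-fold fall (log2 -5.75 ± 0.15, adjusted p = 6.68e-13) left the groups well apart. Lpp, which encodes a focal adhesion protein, went from 6749, 6063 and 5964 to 476, 438 and 501 (log2 -3.70 ± 0.0694, adjusted p = 7.86e-14). Tenm3, a teneurin gene of cell adhesion, went from 659, 675 and 599.7 to 13.2, 11.2 and 13.1 (log2 -4.84 ± 0.22, adjusted p = 2.57e-10), where the treated values were close to the 10.4 that was added before taking logs. Adam12, a metalloprotease gene, changed by log2 -4.02 ± 0.0986 and the exocyst gene Exoc4 by -3.49 ± 0.0920. The receptor phosphatase genes Ptprg and Ptprm changed by -3.59 ± 0.25 and -3.30 ± 0.13, and the cyclin-dependent kinase gene Cdk14 by -3.65 ± 0.33. Snd1, the gene of a nuclease and transcription coactivator, changed by -3.65 ± 0.0914 on the probe set taken for the gene, while its other probe set was at -0.48. These genes are long, between 104 kb for Mgll and 1297 kb for Tenm3, against a median of 21.9 kb over all genes.

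Large falls were also seen in shorter genes of neural and muscle lineages. Fabp7, the brain lipid carrier gene, had signals of 1210.1, 1649 and 1532 in untreated and 59.5, 46.5 and 48.8 in treated cells (log2 -4.57 ± 0.19, adjusted p = 8.29e-11). Bex1, a neuronal adaptor gene, went from 1029.9, 1358 and 1284 to 70.2, 86.6 and 74.7 (log2 -3.81 ± 0.12), and Acta1, the skeletal muscle actin gene, from 2765, 2927 and 2662 to 292, 242 and 288 (log2 -3.30 ± 0.12). The 2 groups did not overlap in any of them, as the choice of the largest falls required. Cd200, which encodes a membrane glycoprotein that dampens myeloid cells, and Fxyd6, a regulator of the sodium pump, changed by -4.31 ± 0.13 and -5.59 ± 0.18. In untreated Rb null cells Cd200 was at 296 ± 37.3 and Bex1 at 301 ± 32.9 (SD, n = 3), below the untreated wildtype means of 1524 ± 68.9 and 1224 ± 172.

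Many of the tested p53 targets rose. Of 25 tested genes of arrest and feedback, from 29 listed, 13 were higher and 1 lower, against 14.8% and 12.7% of all genes, and the median change was log2 0.74 against 0.0565 for all genes. Of 15 cell death targets 9 were higher and 0 lower (median 0.90), and of 31 targets with roles in metabolism, repair and other processes 18 were higher and 3 lower (median 0.80). Mdm2, which encodes the ubiquitin ligase that degrades p53, had signals of 2569, 3010.3 and 3276 without and 6342, 6882 and 6788 with cisplatin. All treated values lay above all untreated ones (log2 1.18 ± 0.11, adjusted p = 6.54e-07).

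Among the arrest and feedback genes, Trp53inp1, a cofactor of p53 in cell death, rose by log2 1.97 ± 0.0971, Rprm, which arrests cells in G2, by 1.88 ± 0.16, and Ppm1d, the phosphatase that turns off damage signalling, by 1.84 ± 0.0971. The antiproliferative gene Btg2 rose by 1.71 ± 0.15, Gtse1, a microtubule-bound inhibitor of p53, by 1.61 ± 0.0745, and the cyclin G1 gene Ccng1 by 0.74 ± 0.0609. Only 1 of the 3 probe sets of Ccng1 was called, and the lowest was at 0.11. Cdkn1a, which encodes the Cdk inhibitor p21, had signals of 6842, 6491 and 6318 and 8304, 9202 and 8438, without overlap. Its change of log2 0.40 ± 0.0556 was below the 1.5-fold minimum, whereas its other probe set changed by 2.37 and was called. Ccnd2, the cyclin D2 gene, was the lower member of this list (log2 -0.86 ± 0.0850).

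Among death targets, Perp, a desmosome gene, went from 139, 126 and 193 to 802, 855 and 860.3 (log2 2.40 ± 0.14, adjusted p = 3.56e-09), with the 2 groups apart. Dram1, which promotes autophagy, rose by 1.54 ± 0.15, Pidd1, whose product activates caspase-2 and which is also on the arrest list, by 1.48 ± 0.10, and the death receptor gene Fas by 1.46 ± 0.15. Among the metabolic and other targets, Dcxr, a xylulose reductase gene, Ckap2, a spindle gene, and Tap1, the peptide transporter of antigen presentation, rose by 2.31 ± 0.0721, 2.07 ± 0.0947 and 1.81 ± 0.0972.

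In Rb null cells the 3 p53 lists had medians of log2 0.90, 0.69 and 0.81, and the difference of the responses was called higher in wildtype for 1, 1 and 5 genes and lower for 6, 3 and 6, against 23.7% of all genes in either direction. Pmaip1, the BH3-only death gene, rose less in wildtype (0.90) than in Rb null cells (2.47; difference -1.57 ± 0.16, adjusted p = 3.27e-06). Before treatment its signal averaged 1730.1 ± 153 in wildtype cells, against 759.7 ± 87.9 in those without Rb1 (SD, n = 3).

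Replication genes were higher in treated than in untreated wildtype cells. Of 53 tested E2F targets of replication and S phase, from 59 listed, 41 were higher (background 14.8%) and 0 lower, with a median change of log2 1.09. Pcna, the sliding clamp of the replication fork, had signals of 3309, 3164 and 3452 untreated and 7360.4, 7791 and 7667 treated (log2 1.20 ± 0.0503, adjusted p = 8.69e-11). Mcm3, a subunit of the replicative helicase, went from 516, 520 and 569.6 to 1694, 1722 and 1714 (log2 1.66 ± 0.0626, adjusted p = 3.14e-11), and the licensing factor gene Cdt1 from 655, 665 and 672 to 2063, 2091 and 1980.2 (log2 1.61 ± 0.0642). The treated arrays stood above the untreated arrays in all 3. Ccne2, the gene of cyclin E2, which drives entry into S phase, rose by 1.95 ± 0.13, and Timeless, a fork protection gene, by 1.92 ± 0.35. The largest change of the list was that of Cdc6, which loads the helicase onto origins, from 63.8, 110 and 13.7 to 305, 318 and 258 (log2 2.34 ± 0.39, adjusted p = 0.000154). Its untreated arrays were widely spread.

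Untreated wildtype cells had low levels of these transcripts. For 50 of the 53 E2F targets the untreated wildtype mean was the lowest of the 4 groups. The share over all genes was not counted, and 41 of the 53 were already called higher against this group. Treated wildtype cells had 7606 ± 221 for Pcna against 7897 ± 243 in untreated Rb null cells (SD, n = 3). Without Rb1, 16 of the 53 rose and 4 fell (median 0.34), and for 26 the wildtype response was higher by the test of the difference. Promoters of these genes are shown because E2F sites are the feature by which the list is known. Within 250 bases before to 50 after the RefSeq start (build GRCm38.p6), the E2F motifs TTTCGCGC, TTTGGCGC and TTTCCCGC were found on either strand in 16 of 44 promoters of tested list members (36.4%), in 4.54% of the promoters of all 6498 tested genes with an entry, in 6.79% for genes called higher and in 3.15% for genes called lower. The called members with the largest changes and a match before the start were Cdc6, at chr11:98907901-98908150, plus strand, and the helicase gene Mcm6, at chr1:128359706-128359955, minus strand. Mcm6 changed by log2 1.40 ± 0.0876. The 250 bases before each start follow, with motif matches in capitals; in Mcm6 the first 2 of 3 matches overlap.
Cdc6: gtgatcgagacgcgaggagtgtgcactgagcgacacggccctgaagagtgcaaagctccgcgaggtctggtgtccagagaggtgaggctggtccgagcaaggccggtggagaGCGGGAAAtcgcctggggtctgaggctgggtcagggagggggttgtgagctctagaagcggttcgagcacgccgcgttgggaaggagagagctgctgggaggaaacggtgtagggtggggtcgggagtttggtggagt
Mcm6: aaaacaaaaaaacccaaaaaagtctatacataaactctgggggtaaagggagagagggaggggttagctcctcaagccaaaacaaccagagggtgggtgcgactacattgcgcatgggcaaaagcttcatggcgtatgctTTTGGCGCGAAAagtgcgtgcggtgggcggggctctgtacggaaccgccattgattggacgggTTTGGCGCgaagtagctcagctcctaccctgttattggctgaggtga

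Mitotic genes rose as well. Of 48 tested genes of G2/M and mitosis 31 were higher and 0 lower (median 0.73). Cdc20, the activator of the anaphase-promoting complex, had signals of 717, 666 and 553 untreated and 2070.1, 2093 and 2019.7 treated (log2 1.67 ± 0.0814, adjusted p = 4.76e-10). Incenp, a scaffold of the chromosomal passenger complex, rose by 1.53 ± 0.11, the cytokinesis kinesin gene Kif23 by 1.45 ± 0.0955, the securin gene Pttg1 by 1.44 ± 0.0589 and the centromere histone gene Cenpa by 1.36 ± 0.14. The proliferation marker Mki67 had signals of 314, 413 and 367 and 486, 466 and 498, without overlap, and its change of 0.40 ± 0.0916 was below the minimum. In Rb null cells 24 of the 48 fell and 2 rose (median -0.58), and the difference of the responses was higher for 43 of the 48. For 42 of the 48 the untreated wildtype mean was the lowest of the 4 groups, again without a count over all genes, and 31 were already called higher against it. Among 24 tested G1 cyclins, kinases and inhibitors, 7 rose (29.2%) and 2 fell (8.33%), against 14.8% and 12.7% of all genes. The Cdk4 and Cdk6 inhibitor gene Cdkn2c rose by log2 2.08 ± 0.12 and the Rb1 relative Rbl1 by 1.10 ± 0.12, while Cdkn1c, the gene of the Cdk inhibitor p57, changed by -2.23 ± 0.15. Rb1 itself was at 459.7 ± 35.4 untreated and 383 ± 60.1 treated (SD, n = 3), a change of -0.27 ± 0.15 that was not called, with overlapping arrays.

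**Figure D2:**
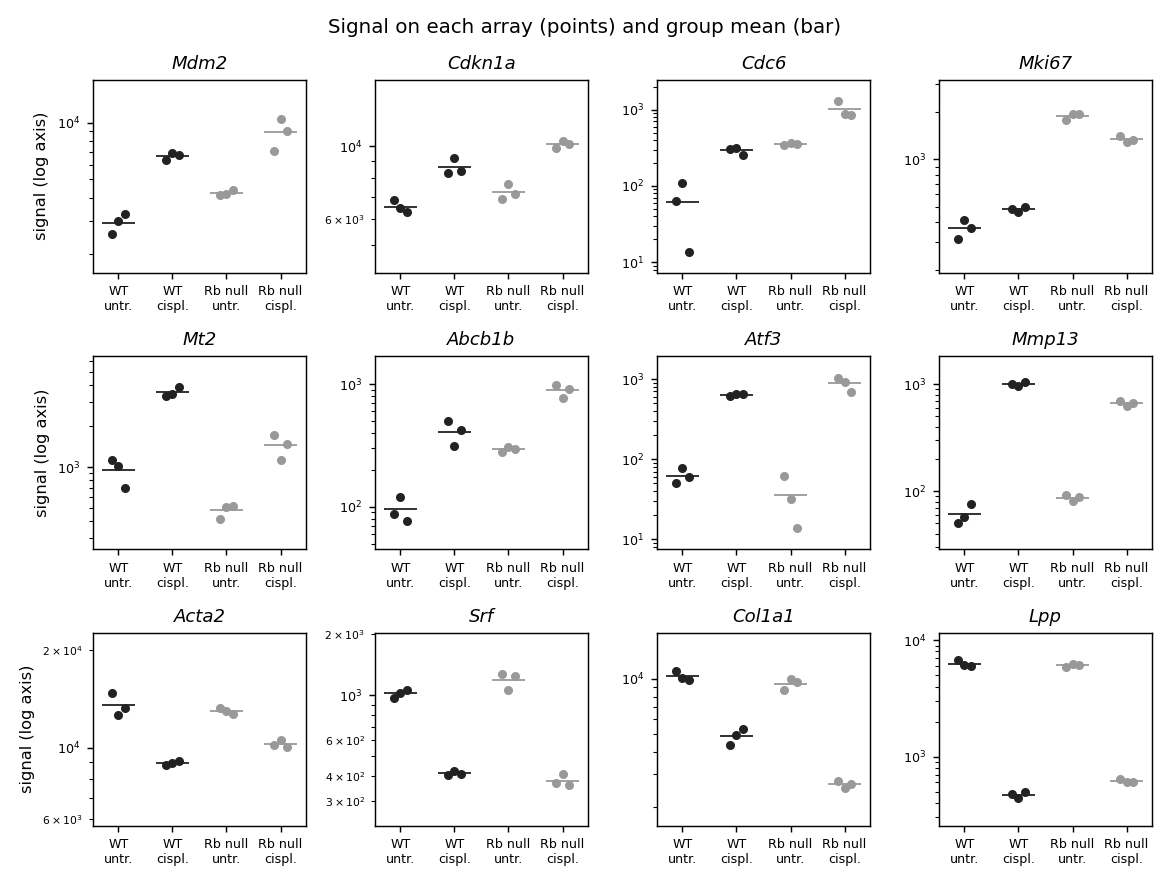
Signal of 12 genes on every array, on log axes, for untreated and cisplatin-treated wildtype (WT, black) and Rb null cells (grey); points are arrays (n = 3 per group) and bars are group means. Among the wildtype arrays, Mdm2, Cdc6, Mt2, Abcb1b, Atf3 and Mmp13 were higher with cisplatin, Acta2, Srf, Col1a1 and Lpp were lower, and Cdkn1a and Mki67 differed by less than 1.5-fold.

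DNA repair genes are read against 14.8% of all genes higher and 12.7% lower. Of 25 tested crosslink repair and homologous recombination genes 13 rose and 0 fell (median 0.72), led by Ube2t, the ubiquitin-conjugating enzyme of the Fanconi pathway, which went from 109, 78.6 and 60.5 to 347, 318 and 345 (log2 1.93 ± 0.16, adjusted p = 1.74e-07). The groups did not overlap. Rev1, a polymerase that bypasses lesions, rose by 1.17 ± 0.12, the nuclease gene Eme1 by 1.13 ± 0.12 and Brca1 by 1.06 ± 0.11. For Brca1, 2 of 3 probe sets were called. Without Rb1, 2 of the 25 rose and 3 fell. Nucleotide excision repair genes were near the background, with 3 of 18 higher and 1 lower (median 0.0881). Ercc5, the nuclease that cuts on the 3′ side of the lesion, rose by 1.73 ± 0.0917, the helicase gene Ercc2 by 1.60 ± 0.34 and Xab2 by 1.0 ± 0.10. Mismatch and base excision repair genes were near it too, with 3 of 16 higher and 0 lower. Msh6, the mismatch recognition gene, had signals of 252, 265 and 256 and 1298, 1217 and 1289.7 (log2 2.26 ± 0.0738, adjusted p = 7.86e-12), with the treated arrays well above. So were checkpoint genes, with 3 of 17 higher and 1 lower. The kinase gene Atm rose from 95.4, 84.6 and 111 to 256, 276 and 252 (log2 1.35 ± 0.15), and its relative Atr fell from 223, 200.3 and 303 to 91.6, 106 and 88.5 (log2 -1.24 ± 0.15, adjusted p = 7.08e-06).

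For genes of the death machinery the background is again 14.8% higher and 12.7% lower. The BCL2 family was above it both ways, at 23.1% and 15.4%. The list of caspases and inhibitors of apoptosis was below it, at 11.1% and 0%. Among 13 tested BCL2 family genes 3 rose and 2 fell, with 8 not called. The BH3-only genes Bcl2l11, Bbc3 and Pmaip1, whose products neutralize survival proteins, rose by log2 1.06 ± 0.12, 0.99 ± 0.10 and 0.90 ± 0.11, and the survival gene Bcl2 and the effector relative Bok changed by -1.08 ± 0.25 and -1.22 ± 0.11. Of 18 caspases, their activators and their inhibitors 2 rose, Casp6 (0.74 ± 0.10) and Apaf1 (0.70 ± 0.0917), the latter the scaffold of the apoptosome, and 0 fell.

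Genes that handle platinum, metals and oxidants included some clear rises. The multidrug transporter genes Abcb1b and Abcb1a went from 88.1, 121 and 76.9 to 496, 314 and 420 and from 54.5, 50.8 and 31.4 to 176, 155 and 179. In both the treated arrays were higher without overlap (log2 1.99 ± 0.17, adjusted p = 1.71e-07, and 1.71 ± 0.22, adjusted p = 1.01e-05). Atp7a, a copper pump that can export cisplatin, changed by -0.76 ± 0.0957, though 1 of its 2 probe sets was not called. These were among 14 tested uptake and efflux genes, of which 3 rose (21.4%) and 1 fell (7.14%), against 14.8% and 12.7% of all genes. The third rise was that of the copper transporter relative Slc31a2 (log2 0.61 ± 0.23, adjusted p = 0.0388), whose arrays overlapped and whose call was lost in 8 of the alternative settings.

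The metallothioneins Mt1 and Mt2, small cysteine-rich proteins that bind heavy metals including platinum, rose alike. Mt1 had signals of 1007, 1062 and 983 and 3559.8, 3994 and 3813 (log2 1.89 ± 0.0893, adjusted p = 3.33e-10), and Mt2 of 1124, 1014 and 706 and 3307, 3399 and 3869 (log2 1.91 ± 0.17, adjusted p = 2.41e-07). All treated arrays were above all untreated ones. The 250 bases before their RefSeq starts (build GRCm38.p6) are shown because they hold, in capitals, matches to the metal response element, searched as TGCACNC or TGCGCNC on either strand, which 6 of 24 promoters of the list below (25%) and 41.1% of the promoters of tested genes also held in the same window, 38.3% of those called higher and 45.8% of those called lower. Mt1 lies at chr8:94178839-94179088, plus strand, and Mt2 at chr8:94172368-94172617, plus strand.
Mt1: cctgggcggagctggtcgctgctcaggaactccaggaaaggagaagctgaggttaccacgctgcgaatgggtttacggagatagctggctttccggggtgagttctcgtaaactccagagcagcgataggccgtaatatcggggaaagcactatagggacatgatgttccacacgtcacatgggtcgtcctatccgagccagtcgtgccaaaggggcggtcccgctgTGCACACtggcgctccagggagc
Mt2: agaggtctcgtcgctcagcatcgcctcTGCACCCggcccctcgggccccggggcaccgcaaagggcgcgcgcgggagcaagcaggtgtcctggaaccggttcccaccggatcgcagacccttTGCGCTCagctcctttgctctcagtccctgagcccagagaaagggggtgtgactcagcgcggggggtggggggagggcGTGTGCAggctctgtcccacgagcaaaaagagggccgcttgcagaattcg
Of 28 tested metallothioneins and targets of NRF2, the transcription factor of the oxidant response, 9 rose and 1 fell. These were 32.1% and 3.57%, against 14.8% and 12.7% of all genes. The NRF2 gene itself, Nfe2l2, rose by log2 0.98 ± 0.0628, and its targets Srxn1, a peroxiredoxin reductase gene, and Gclm, a subunit gene of glutathione synthesis, by 1.55 ± 0.0806 and 0.93 ± 0.10. Hmox1, the heme oxygenase gene, had signals of 1427, 1302 and 1187 and 1795, 1558 and 1780, a change of 0.39 ± 0.0932 that was not called, whereas in Rb null cells it changed by 1.88 ± 0.0932 and was called (difference -1.49 ± 0.13, adjusted p = 1.07e-06). Of 13 glutathione S-transferase genes 4 rose (30.8%) and 0 fell, Mgst1 most (log2 1.54 ± 0.0870). Of 23 heat shock chaperones 6 rose (26.1%) and 1 fell (4.35%). Hspa1a was at 2.51 ± 0.13 and its near-identical neighbour Hspa1b at 1.90 ± 0.0934, and their probe sets may share signal. The small chaperone gene Cryab was at 1.43 ± 0.0952.

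Among genes of the unfolded protein response and of amino acid supply, more were lower than higher. Of 40 tested genes of the endoplasmic reticulum stress and integrated stress response 18 were lower (background 12.7%) and 5 higher, with a median of log2 -0.48. The serine synthesis gene Psph changed by -1.77 ± 0.12, the amino acid transporter gene Slc7a5 by -1.43 ± 0.0779 and the mitochondrial one-carbon gene Mthfd2 by -1.66 ± 0.0724. Herpud1, a gene of protein degradation at the endoplasmic reticulum, went from 1121, 957 and 961 to 301, 299.8 and 327 (log2 -1.68 ± 0.18, adjusted p = 2.29e-06), with the groups apart. Against this direction, Atf3 rose from 50.7, 76.6 and 60.3 to 611, 657 and 647 (log2 3.17 ± 0.29, adjusted p = 3.45e-07); it is a transcription factor gene of several stress pathways and is also on the immediate early list. Cebpb, a transcription factor gene of inflammation and differentiation, rose by 1.27 ± 0.0943. Of 18 tested aminoacyl-tRNA synthetases, which charge tRNAs, 9 fell and 0 rose (median -0.59). Eprs had the largest fall (-1.52 ± 0.0778), although 1 of its 3 probe sets was not called, followed by Lars (-1.24 ± 0.0646) and Aars (-1.12 ± 0.10).

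Immediate early genes, whose short-lived transcripts follow growth factor and stress signals, were higher. Of 40 tested, 23 rose and 2 fell (median 0.67). Fos had signals of 213, 239 and 225 untreated and 1578, 1587 and 1817 treated (log2 2.82 ± 0.12, adjusted p = 1.33e-10), and Egr1 of 934, 889.8 and 736 and 5416, 5337 and 5830.1 (log2 2.69 ± 0.12, adjusted p = 1.33e-10). Their treated arrays did not come near the untreated ones. The nuclear receptor genes Nr4a1 and Nr4a2 rose by 2.77 ± 0.11 and 2.44 ± 0.13. Srf, the serum response factor gene, and the Ras pathway inhibitor gene Spry1 were the 2 that fell, with changes of -1.29 ± 0.0849 and -0.89 ± 0.10. Myc had signals of 1175, 1014 and 939.9 and 1426, 1210.3 and 1315, and its change of 0.34 ± 0.0863 was not called.

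Cytokine genes and targets of NF-kB went both ways, 11 of 27 higher and 5 lower. Besides Mmp13, Ccl9 and Icam1, the stromelysin gene Mmp3 rose by log2 2.35 ± 0.12 and the neutrophil chemokine gene Cxcl1 by 1.37 ± 0.14. Ccl5, a T-cell chemokine gene, went from 211, 181 and 182 to 20.6, 7.40 and 17 (log2 -3.02 ± 0.21, adjusted p = 1.57e-08), and Cxcl12, the stromal chemokine gene, from 2329.6, 2284 and 2922 to 660, 623 and 610.1 (log2 -1.97 ± 0.0908, adjusted p = 2.57e-10). Both fell without overlap. Interferon response genes were near the background, with 4 of 21 higher and 1 lower, and so were the 12 tested genes of MHC class I presentation, with 2 higher and 0 lower. Those 2 were Tap1 and the class I heavy chain gene H2-D1 (1.42 ± 0.15), a member of a family of closely related genes whose probes may share signal. The summed signal of macrophage and leukocyte markers was also higher on treated arrays (13941 to 14704 against 8355 to 9054), and its part in these changes was not tested.

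Matrix genes fell widely. Of 27 tested collagens and collagen-modifying enzymes 17 were lower (background 12.7%) and 0 higher, with a median of log2 -1.05. Col1a1, the main fibrillar collagen gene of fibroblasts, had signals of 11073, 10136 and 9880.4 untreated and 4340.4, 4914 and 5313 treated (log2 -1.10 ± 0.0765, adjusted p = 2e-08). Col8a1 went from 4662, 4212 and 4378 to 591, 574 and 592 (log2 -2.89 ± 0.0649, adjusted p = 3.25e-13). The treated arrays lay below in both. The fibril-nucleating Col5a1 and the basement membrane collagen genes Col4a1 and Col4a2 changed by -2.40 ± 0.0854, -2.0 ± 0.0542 and -2.30 ± 0.0841. Falls were largest in the longest collagen genes: 9 of 10 tested list members of 100 kb or more were lower, with a median of -1.98, against 7 of 13 between 20 and 100 kb (median -0.73) and 1 of 4 below 20 kb (median -0.45).

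Of 32 tested proteoglycans, elastic fibre and adhesive matrix genes 18 were lower and 4 higher (median -0.66). Lama2, a laminin gene of 636 kb, changed by log2 -2.75 ± 0.27, the glypican gene Gpc6, of 1055 kb, by -1.68 ± 0.13 and the microfibril gene Mfap5, of 15.7 kb, by -1.41 ± 0.0739. Lum and Ecm1, a secreted matrix glycoprotein gene (1.69 ± 0.0633), went the other way. Matrix proteases and their inhibitors were divided, 6 of 22 higher and 7 lower. Mmp10, another stromelysin gene, went from 162, 199 and 174 to 1415, 1369 and 965 (log2 2.72 ± 0.22), and the gelatinase gene Mmp9 from 938, 871 and 892 to 165, 153 and 162 (log2 -2.42 ± 0.12), neither with overlap. The secreted serine protease gene Htra1 and the fibroblast activation protease gene Fap changed by -2.04 ± 0.12 and -2.08 ± 0.15. All 6 members that rose were shorter than 20 kb.

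Contractile and actin genes formed the list with the highest share of falls: 25 of 34 tested smooth muscle, actin and SRF target genes were lower and 0 higher, with a median of log2 -0.87. Cnn1, the smooth muscle calponin gene, went from 4895, 4975 and 4779.9 to 784, 774 and 772 (log2 -2.64 ± 0.0946, adjusted p = 2.03e-11). Actg2, an actin gene of visceral muscle, went from 6094, 5490.1 and 5608 to 1031, 949 and 912 (log2 -2.56 ± 0.0738, adjusted p = 2.72e-12). The treated arrays were lower in both. Lmod1, an actin nucleator gene, changed by -3.25 ± 0.26, the stretch-responsive cofactor gene Ankrd1 by -2.49 ± 0.0813 and the fibronectin receptor gene Itga5 by -2.02 ± 0.0691. Serum response factor, the transcription factor that gives the list its name, had Srf signals of 973, 1032 and 1060.1 and 405, 421 and 409.5 (log2 -1.29 ± 0.0849, adjusted p = 1.09e-08), without overlap, on 1 of its 2 probe sets. Acta2, the smooth muscle actin gene, had signals of 14718, 12630 and 13261 untreated and 8823, 8953 and 9069.7 treated, without overlap, and its change of -0.59 ± 0.0526 was just past the 1.5-fold minimum. Its call was lost without cisplatin replicate a and without untreated replicate 1. The cytoskeletal Actb changed by 0.0639 ± 0.0568 on the probe set taken and by 1.15 on the other. Members of every length class fell: 12 of 17 members below 20 kb were lower (median -0.79), 11 of 13 between 20 and 100 kb (median -0.99) and 2 of 4 of 100 kb or more (median -0.95). The summed signal of skeletal muscle markers was lower as well, at 1314 to 1590 on treated against 4492 to 4587 on untreated arrays, and its part in these falls was not tested. Of that sum, Acta1 alone went from 2785 ± 133 to 274 ± 27.7 (SD, n = 3).

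The CArG box, the element that serum response factor binds, was found in the promoters of 8 of 30 list members with an entry (26.7%), against 1.69% of tested genes, 4.54% of genes called lower and 0.823% of genes called higher. Shown are the 2 called members with the largest change that held a match before the start: Myl9, a myosin light chain gene at chr2:156775214-156775463, plus strand, which changed by log2 -1.59 ± 0.0577, and Vcl, the gene of the adhesion protein vinculin at chr14:20929148-20929397, plus strand, which changed by -1.35 ± 0.0636. Capitals mark the match.
Myl9: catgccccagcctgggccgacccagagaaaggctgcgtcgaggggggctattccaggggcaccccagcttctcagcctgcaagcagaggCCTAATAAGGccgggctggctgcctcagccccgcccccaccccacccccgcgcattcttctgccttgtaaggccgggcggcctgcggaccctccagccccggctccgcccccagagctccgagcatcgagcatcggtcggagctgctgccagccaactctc
Vcl: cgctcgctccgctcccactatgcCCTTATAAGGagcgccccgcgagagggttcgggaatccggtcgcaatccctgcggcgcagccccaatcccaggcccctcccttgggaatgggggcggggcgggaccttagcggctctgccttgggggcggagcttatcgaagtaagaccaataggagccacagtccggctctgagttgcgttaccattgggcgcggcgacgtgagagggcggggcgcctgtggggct

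**Figure D3:**
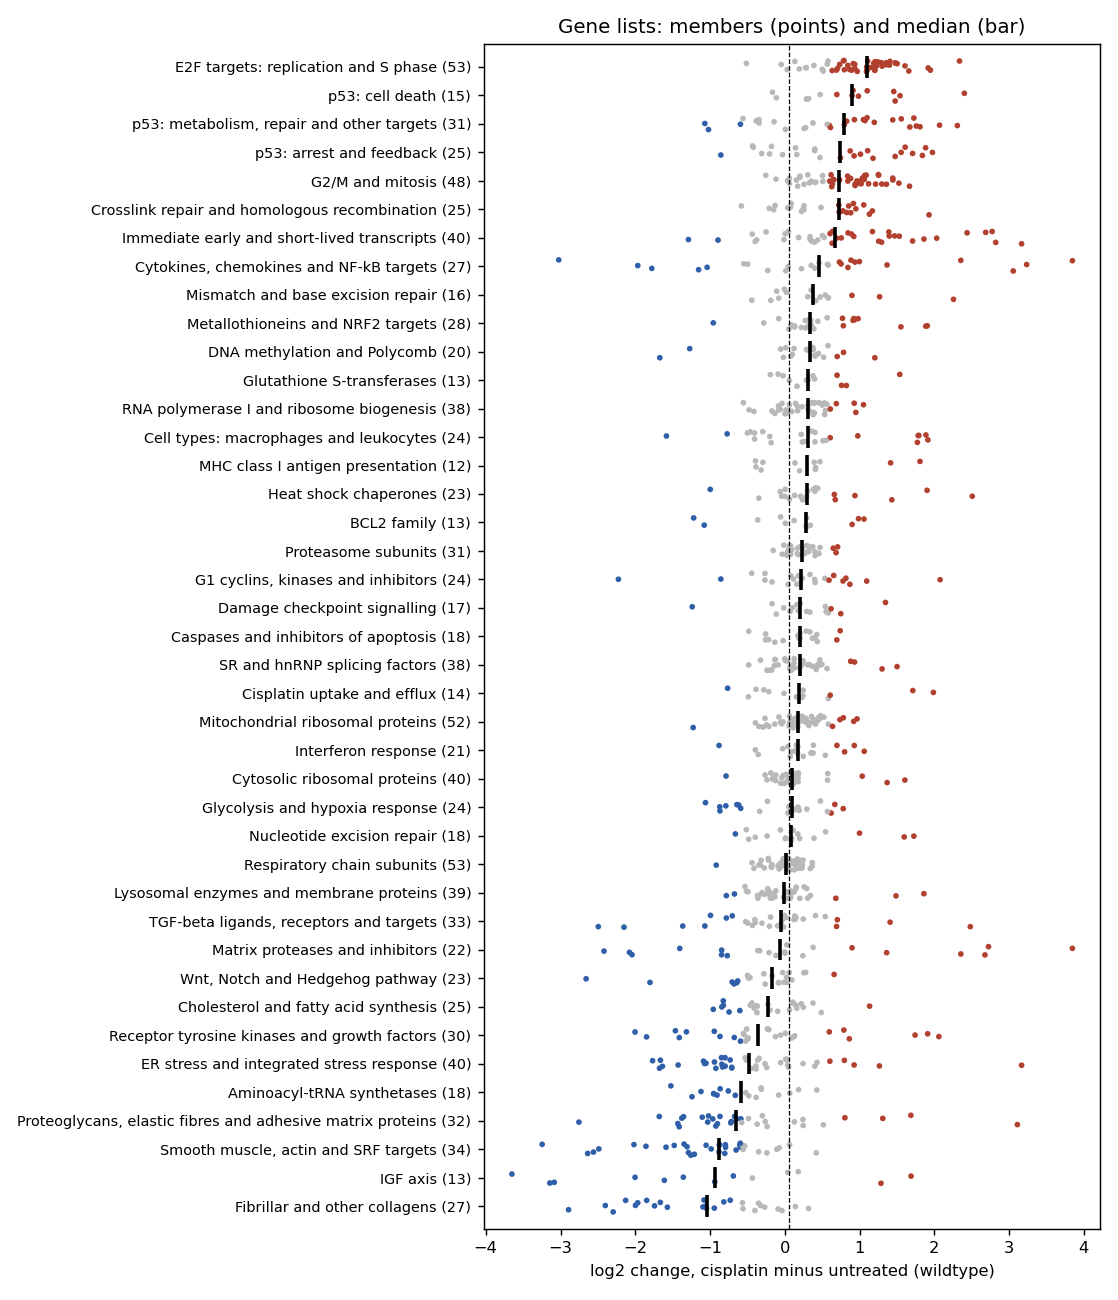
Log2 change in wildtype cells of the members (points) of the gene lists with at least 12 tested members, given in parentheses; red and blue points are called higher and lower, bars are list medians and the dashed line is the median of all genes, 0.0565. E2F targets stand at the top with a median of 1.09 and collagens at the bottom with -1.05.

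Growth factor genes lost signal on the side of insulin-like growth factors. Of 13 tested genes of the IGF axis 8 fell and 2 rose (median -0.94). Igf2, the fetal growth factor gene, had signals of 7195, 6442 and 6921 untreated and 895, 776 and 733 treated (log2 -3.08 ± 0.0744, adjusted p = 5.66e-13). The groups were far apart, while in Rb null cells it was at 5422 ± 220.5 and 5464 ± 269 (SD, n = 3; log2 0.0106 ± 0.0744). Igfbp2, which binds these ligands, went from 4741, 4216 and 4019 to 339.5, 339 and 324 (log2 -3.65 ± 0.0849, adjusted p = 4.63e-13). The protease gene Pappa, which cleaves IGF-binding proteins, and the receptor gene Igf1r changed by -3.14 ± 0.11 and -2.0 ± 0.11. Igfbp4, in contrast, rose from 1162, 1329 and 1236 to 3526, 4076 and 4524 (log2 1.69 ± 0.0981) and Igfbp6 rose by 1.29 ± 0.0860. Igfbp4 fell in Rb null cells (-1.50 ± 0.0981).

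Other signalling lists are read against the same 14.8% higher and 12.7% lower. Of 30 receptor tyrosine kinases and growth factors 6 rose and 9 fell, with the EGF receptor ligand gene Ereg at log2 2.06 ± 0.0639, the PDGF receptor gene Pdgfra at 1.91 ± 0.21, the ephrin receptor gene Epha4 at -1.85 ± 0.11 and Pdgfc at -1.46 ± 0.12. Of 33 TGF-beta genes 4 rose (12.1%) and 7 fell (21.2%), with a median of -0.0483. The ligand genes Tgfb3 and Tgfb2 changed by -2.49 ± 0.0935 and -2.15 ± 0.17, and the receptor gene Acvrl1 went from 53, 67.1 and 110 to 446, 435 and 497 (log2 2.48 ± 0.21), with the treated arrays higher. Wnt, Notch and Hedgehog genes had 6 of 23 lower (26.1%) and 1 higher (4.35%), a larger share of falls and a smaller share of rises than among all genes. Among the falls, those of Hey1, Gli3 and Fzd8 lost their calls in 12, 4 and 2 alternative settings. The rise, that of Notch3, lost its call in 1. The Notch ligand gene Jag1 had the largest fall, from 1277, 1357 and 1268 to 203, 195 and 195 (log2 -2.66 ± 0.0821, adjusted p = 4.37e-12), and was -0.43 ± 0.0821 and not called in Rb null cells.

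Few genes of the respiratory chain, ribosomes, proteasome, splicing and lysosomes were called. Of 53 respiratory chain subunit genes 0 rose and 1 fell, with a median of log2 0.0149. The 1 that fell, Ndufs4 (-0.92 ± 0.0960, and -0.35 on its other probe set, not called), is a gene of 100.3 kb. Of 52 mitochondrial ribosomal protein genes 5 rose and 1 fell, and that 1, Mrps28 (-1.23 ± 0.0948), spans 122 kb. Cytosolic ribosomal protein genes had 3 of 40 higher and 1 lower, proteasome genes 3 of 31 higher and 0 lower, and genes of RNA polymerase I and ribosome biogenesis 5 of 38 higher and 0 lower. Splicing factors had 4 of 38 higher and 0 lower, lysosomal genes 3 of 39 higher and 2 lower. These shares lie below the background of 27.5% called in either direction. Of 25 cholesterol and fatty acid synthesis genes 6 fell (24%, background 12.7%) and 1 rose (4%, background 14.8%). The sterol synthesis gene Hmgcs1 changed by -0.82 ± 0.0914, with 2 of 4 probe sets called. Of 24 glycolysis and hypoxia genes 7 fell (29.2%) and 3 rose (12.5%). P4ha1, a prolyl hydroxylase gene also listed with the collagens, changed by -1.06 ± 0.0779 and the hexokinase gene Hk2 by -0.87 ± 0.0739. Among 20 tested DNA methylation and Polycomb genes 3 rose (15%) and 2 fell (10%), near the background. The de novo methyltransferase gene Dnmt3a changed by -1.67 ± 0.17, and Uhrf1, whose product recruits the maintenance methyltransferase to replicated DNA, rose by 1.20 ± 0.0971. The variant histone genes H2az1 and H2az2 rose by 1.24 ± 0.0496 and 0.90 ± 0.0749.

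Markers of other cell types were present and moved with treatment, and their part in the results above was not tested. Of 24 tested macrophage and leukocyte markers (median 0.31) 7 were higher (29.2%) and 2 lower (8.33%), against 14.8% and 12.7% of all genes. Lyz1 was 1 of the 7, called on a probe set of a cross-hybridizing type that may share signal with Lyz2. Its mean went from 1449.5 to 5494.5 there, but was 53.4 and 59 on another probe set, and its call was lost without the filter. The rise of the summed signal over 28 markers on the array, given above, was smaller without the 2 lysozyme genes. That sum was then 7265 to 7696 untreated and 9604 to 10305 treated. In the full sum Lyz1 counted at 53.4 and 59, so the reduction came almost wholly from Lyz2. Lyz2, the macrophage lysozyme gene, went from 1063, 1042 and 1266 to 3884, 4359 and 4279 (log2 1.89 ± 0.0776, adjusted p = 7.07e-11), and Cd68 and Cd53 rose by 1.78 ± 0.10 and 1.77 ± 0.11, in each case without overlap. Cd52 and Coro1a were the 2 that fell, with changes of -1.58 ± 0.35 and -0.77 ± 0.23, the latter call lost in 2 alternative settings. Other defining markers were not called. The mean of Adgre1 (F4/80) was 361.6 untreated and 273 treated, and that of Csf1r 1274 and 1527. C1qa was at 436 and 581.5 and Ptprc (CD45) at 166.2 and 115.5. The chemokine Ccl3 was the only one of the 28 below the added 10.4 in each group. Of the 24, 17 fell and 2 rose in Rb null cells.

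Some neural and skeletal muscle markers fell. The summed signal of 17 neural and glial markers was 8815 to 9437 on untreated and 2007 to 2572 on treated arrays, and 4 of 7 tested fell, among them Ncam1 (-3.28 ± 0.13) and Stmn2 (-1.62 ± 0.14) besides Fabp7. Of 7 tested skeletal muscle markers 2 fell, Acta1 and Actc1 (-2.07 ± 0.15), and 5 were not called (median -0.18). The myogenic factors Myf5 and Myf6 were below 10.4 in both groups. Of 6 cartilage and bone markers tested, from 12 on the array, 4 were higher (66.7%, against 14.8% of all genes). Col10a1 and Mgp (1.74 ± 0.0800) were among them, while Col2a1 fell (-3.26 ± 0.28). The call of the bone gene Sp7 was lost in 13 alternative settings. The fibroblast markers, which check the label, summed to 66514 to 69901 untreated and 58595 to 61020 treated, with 4 of 14 higher and 5 lower and none of 15 below 10.4. S100a4 rose by 1.33 ± 0.0747 and the fibronectin gene Fn1 changed by -0.67 ± 0.0613.

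Falls were most frequent among the longest genes. Genes that fell had a median length of 67.1 kb, genes that rose 14.6 kb and genes not called 21.0 kb, taken from RefSeq positions on GRCm38.p6 for 7937 genes. The median change was log2 0.13 below 5 kb, 0.15 between 10 and 20 kb, -0.11 between 50 and 100 kb, -0.44 between 100 and 200 kb and -1.06 above 200 kb. Of 246 genes above 200 kb, 174 were lower (70.7%) and 4 higher (1.63%), against 5.73% lower and 20.1% higher below 5 kb. The 4 that rose were the phosphodiesterase gene Pde4b (log2 2.76), the protocadherin gene Pcdh7 (1.61), the RNA-binding protein gene Celf4 (1.59) and the centrosome gene Tacc2 (0.94). Of the 20 largest falls 11 were above 200 kb, and of the 20 largest rises 0 were above 100 kb. Across genes, which are not independent replicates, length and change correlated at Spearman's rho -0.31. Long genes had lower signals, with a median mean log2 signal of 7.74 above 200 kb against 9.13 below 5 kb. Among genes above the median signal the change above 200 kb was -1.02 (48 genes). In Rb null cells the median above 200 kb was -1.56, with 79.3% lower.

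**Figure D4:**
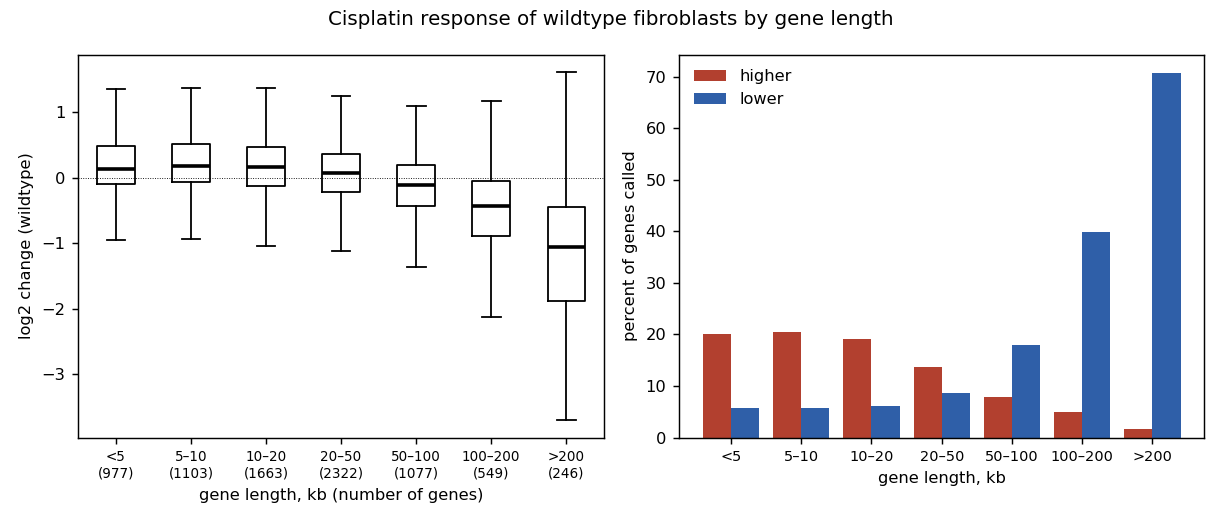
Left, log2 change in wildtype cells by gene length in kb, with boxes from the lower to the upper quartile, a bar at the median and whiskers to the farthest gene within 1.5 box lengths; numbers of genes are in parentheses. Right, percent of genes of each length called higher (red) and lower (blue): the share lower went from 5.73% below 5 kb to 70.7% above 200 kb.

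Most of the genes that rose or fell in wildtype cells did so in Rb null cells too, where 16.6% of all genes rose and 20.3% fell. Of the 1175 genes that rose in wildtype cells, 672 (57.2%) rose in Rb null cells, which is 51.0% of the 1317 that rose there, and 45 fell. Of the 1009 that fell in wildtype cells, 755 (74.8%) fell in Rb null cells, 46.7% of the 1615 there, and 21 rose. The difference of the responses was called for 1885 genes (23.7%), with the wildtype response higher for 1194 and lower for 691. This balance depended on the scaling: of probe sets 1959 were higher and 1173 lower, but 1434 and 1678 with arrays centred on their median, and 1535 and 1542 with quantile normalization. Since the untreated wildtype group enters every one of these differences, drug, genotype and culture cannot be told apart in them.

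**Figure D5:**
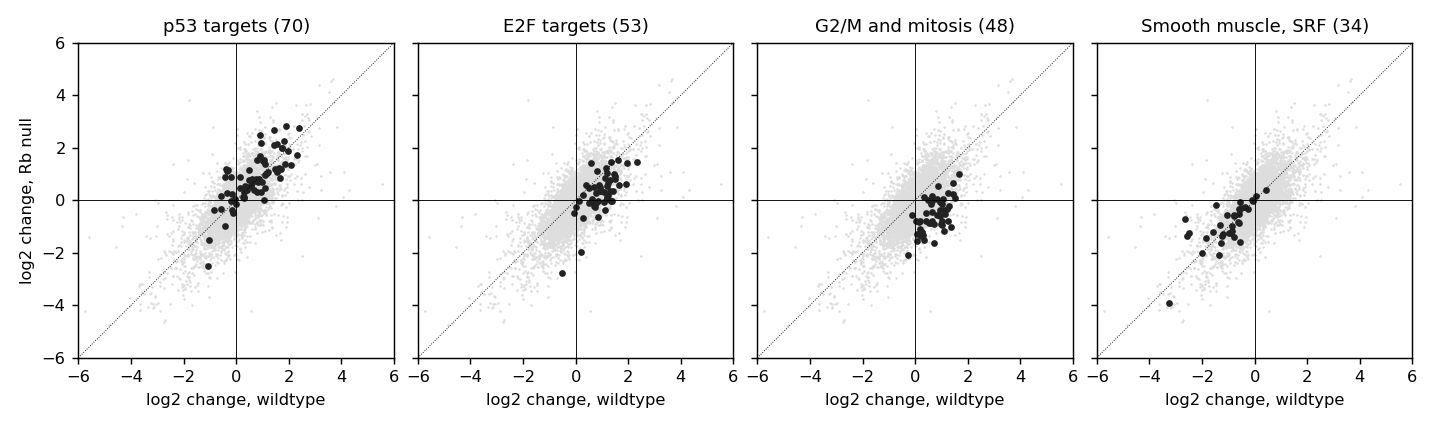
Log2 change with cisplatin in wildtype (x axis) and Rb null cells (y axis) for 4 groups of genes (black, number in parentheses) over all tested genes (grey); the dotted line marks equal change. The p53 targets lie on both sides of the line. In their lists (arrest and feedback, cell death, other) the difference was called higher for 1, 1 and 5 genes and lower for 6, 3 and 6. E2F targets lie mostly to the right of the line, and G2/M genes to the right of it with Rb null values mostly below 0 (median -0.58 against 0.73 in wildtype).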

How the data were processed

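Total RNA of 4 groups of MEFs was hybridized to 12 single-colour arrays with 22690 probe sets, and the deposited values are signal intensities per probe set on a linear scale, made with MAS5 per the submitters' processing notes (version not given in the sources used here). MAS5 summarizes each array by itself. With the top and bottom 2% of values left out, array means were 500.1 to 500.2, and the arrays were used as scaled. No array repeated another.

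From these values log2(intensity + 10.4) was computed, 10.4 being the 10th percentile of all values, and the 40% of probe sets with the lowest mean were left out. The model was fitted with limma 3.58.1 in R 4.3.3: 1 mean per group over all 12 arrays, moderated variances with a trend, two-sided tests and Benjamini-Hochberg adjustment over 13575 probe sets. Standard errors share 8 residual degrees of freedom. A further contrast tested the wildtype minus the Rb null response. The number of arrays, 3 per group, limits the precision.

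Probe sets were named from the platform annotation: 20380 had 1 symbol, of which 20364 matched a RefSeq row on GRCm38.p6, 691 had several genes and 1555 none. Each gene was taken by 1 probe set, avoiding cross-hybridizing types and otherwise that with the highest mean, and 12 of 3032 genes with several tested probe sets had opposite calls. Genes named in the text were the 20 largest rises and falls with non-overlapping arrays and without provisional symbols, up to 5 leading called members of each of 51 gene lists with up to 2 in the opposite direction, a fixed set of reference genes, and the 8 largest differences between genotypes each way. The lists and the choice of genes were made with earlier results of these data known, so they are not independent evidence. The fit was tested on simulated data. Alternatives varied the pseudocount, filter, normalization, variance trend, minimum change, probe set rule and arrays used. Genes in the text that stand outside the rule are Mcm6, Myl9, Vcl, the 4 long genes that rose and the macrophage markers given by their means, chosen after their values were seen.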

Additional observations from a re-analysis of the deposited data

Results flagged for a closer look

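The genes whose wildtype response differed most from the Rb null response, by the test of the difference in limma, are given with that difference as log2 ± SE. Wildtype cells had the higher response for Rpgrip1 (4.94 ± 0.26), Tmem45a (4.79 ± 0.21), the platelet chemokine gene Ppbp (4.63 ± 0.14), Sod3 (4.03 ± 0.27), Xist (3.94 ± 0.17), Aqp1 (3.91 ± 0.15), Lum (3.78 ± 0.19) and Igfbp4 (3.19 ± 0.14). Tmem45a and Ppbp fell in Rb null cells. Tmem45a went from 426 ± 35.4 to 12.9 ± 3.26 there (SD, n = 3) and from 305, 415 and 406 to 518, 515 and 624 in wildtype cells. Ppbp went from 745 ± 4.09 to 162 ± 16.1 in Rb null cells and rose from 308, 267 and 254 to 1477, 1708 and 1612 in wildtype cells. The wildtype change of Tmem45a, log2 0.55 ± 0.15, was not called.

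Wildtype cells had the lower response for the epidermal gene Lce1f (-5.61 ± 0.15), Fxyd6 (-4.18 ± 0.25), the interferon-induced GTPase gene Gbp2b (-3.76 ± 0.22), Cd200 (-3.66 ± 0.19), the interferon-induced gene Ifi202b (-3.65 ± 0.13), the epidermal gene Crct1 (-3.38 ± 0.13), Moxd1 (-3.36 ± 0.39) and Bex1 (-3.27 ± 0.17). Lce1f rose in Rb null cells from 77.6 ± 12.3 to 1219 ± 119.8 (SD, n = 3), and fell in wildtype cells from 2687, 2970.1 and 2669 to 782, 741 and 848. Fxyd6 stood at 1203, 1176 and 1206 on untreated and 7.30, 16.4 and 22.4 on treated wildtype arrays, and at 633 ± 12.7 and 234 ± 37.8 in Rb null cells.

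Control probe sets outside the tested genes also differed. The 3′ control of 18S ribosomal RNA had a mean signal of 213.5 ± 29.2 (SD, n = 3) on treated wildtype arrays (245.4, 188 and 207.2) against 105.7 ± 14.5 on untreated ones (104.3, 92 and 120.8), with no overlap. In Rb null cells it was 383 ± 91.7 against 110.3 ± 10.4. The 3′ Gapdh control was at 9350 ± 361 treated and 9102 ± 539 untreated in wildtype cells, with overlapping arrays. The part of ribosomal RNA in the other results was not tested.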

How the results depend on the processing

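No paired analysis was possible because untreated arrays are numbered 1 to 3 and treated ones a to c, so the groups share no replicate number. Over 27 alternative settings, counts over all genes and probe sets moved by over 1.5 times only with another filter or minimum change. With the lowest 60% of probe sets left out, so that fewer were tested, 1059 probe sets and 618 genes were lower, and the difference of the responses was higher for 1255 and lower for 766 probe sets (1959 and 1173 in the text's setting). With no minimum change, 4028 probe sets and 2545 genes were higher, 3385 and 1949 lower, and the difference 3084 higher and 2025 lower. With a minimum of 2-fold these were 737 and 476, 844 and 491, and 788 and 403. The median change of genes above 200 kb was log2 -0.97 with 45.8 added before logs, -0.65 without the filter, -1.21 with the 60% filter and -1.10 with arrays centred on their median. Leaving out 1 array at a time gave -1.09 to -0.998, 1170 to 1211 genes higher and 974 to 1032 lower. The array medians, treated minus untreated, differed by log2 0.0386 for wildtype and -0.0817 for Rb null arrays, and centring took these differences out. Under centring, as with quantile normalization, the wildtype response was no longer more often higher than lower. Of 272 called genes named by the rule, 255 kept their call and 17 lost it somewhere. Of all list counts and medians under these settings, 199 moved and 2903 did not. Ero1a, -0.79 in the text's setting, was at 0.43 with only the 6 wildtype arrays, where another probe set of the gene is taken. Without genes of chromosomes X and Y counts stayed within 1.5 times. Weak signals limit what can be called: without detection calls no background was set for single probe sets.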
